A study of Caenorhabditis elegans with 6 samples.

Results

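The globins of Caenorhabditis elegans were examined as a gene family in whole adult worms. The family was taken as all protein-coding genes whose symbol in the deposited table is glb followed by a number, which gave 33 genes among the 46589 genes listed. RNA came from 6 libraries of strain Bristol N2, a laboratory wild type, collected as adults 5 days after the L4 stage. There were 3 libraries with the label bcat-1 RNAi, called RNAi-labelled here, from worms treated with RNA interference against the branched-chain amino acid transferase gene bcat-1, and 3 labelled control. By the methods of the study, RNAi was delivered in food bacteria (E. coli HT115) from young adulthood, progeny were washed away daily, and L4440 was the control vector in the experiments for which one is named. Whether the libraries of a group stem from separate cultures is not stated in the labels, so each p-value reflects how these samples vary, and that variation may be technical.

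Globins are small proteins that fold around a heme group, where oxygen and other gases bind. C. elegans has many more globin genes than vertebrates. The worm has no blood, and its globins are found in neurons, muscle, gonad and other tissues, where many of them are thought to sense gases or to carry out redox chemistry rather than to transport oxygen. The worm cannot make heme and takes it from its food.

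The RNAi-labelled libraries held 38347771 to 44137496 counted reads, and the control libraries held 32784443 to 43274827. The targeted gene was not lower where its label says it should be. Levels of bcat-1 were 223, 102 and 287 CPM in the RNAi-labelled libraries, against 135, 135 and 162 CPM in the controls (log2 fold change 0.50, SE 0.30, Benjamini-Hochberg adjusted p = 0.169 in edgeR's quasi-likelihood test; leaving out RNAi replicate 2 gave 0.80 and 0.00279). CPM are counts per 1000000 counted reads, with libraries scaled by TMM, the trimmed mean of M values. All directions below therefore go by the labels, RNAi over control. A read was found for 24092 to 24418 genes in the RNAi-labelled libraries and for 19961 to 21381 in the controls, and ribosomal RNA genes took 0.480% to 1.41% and 0.152% to 0.386% of the reads in the same order of groups. RNAi replicate 3 stood apart from the other libraries of its group (chi-square per degree of freedom 48.2 and 63.0 against them, and 13.8 to 27.5 for the other pairs within a group). The part of these differences in the results below was not tested.

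Globin transcripts were scarce. A globin gene had 45 reads per library in the median over genes and RNAi-labelled libraries, and 18 reads in the controls. The highest count of any globin in any library was 473 reads, for glb-1, and the lowest was 0. Over the 33 genes, the median coefficient of variation among the 3 libraries of a group was 16.4% in the RNAi-labelled libraries and 17.8% in the controls. Counting error, taken as the inverse square root of the mean count, had medians of 14.7% and 23.6% in the same order. The median of a spread estimated from 3 libraries lies below the true spread, so the measures compare only roughly. The replicate spread of this family was thus of the same order as its counting error.

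One globin stood far above the others in level. Levels of different genes were compared in deposited RPKM, the reads of a gene divided by its exon length in kilobases and by the mapped reads in units of 1000000. The gene glb-1 (ZK637.13) lies on the minus strand of chromosome III from 8922399 to 8923290 in WBcel235. It encodes the shortest globin of the family, with 159 residues in its longest coding sequence, and is a cytoplasmic globin known for binding oxygen tightly. Its level was 9.02, 10.2 and 9.76 RPKM in the RNAi-labelled libraries, against 14.9, 12.3 and 10.9 RPKM in the controls. Its mean was 2.17 times that of the second globin, glb-32, in the RNAi-labelled libraries, and 7.07 times that of the second globin, glb-33, in the controls.

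Below glb-1 the levels formed a nearly continuous series. In the RNAi-labelled libraries, 18 globins had a mean of at least 1 RPKM, and the median globin stood at 1.06 RPKM. In the controls 5 globins had such a mean, and the median stood at 0.427 RPKM. Among the 20378 protein-coding genes with a read in any library, medians were 3.61 RPKM in the RNAi-labelled libraries and 1.83 RPKM in the controls. Neighbours in the order of levels mostly overlapped in their replicate ranges. In the RNAi-labelled libraries the ranges of neighbours were apart only between glb-1 and glb-32, between glb-27 and glb-19, and between glb-5 and glb-30. In the controls they were apart only between glb-1 and glb-33 and between glb-33 and glb-18.

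**Figure D1:**
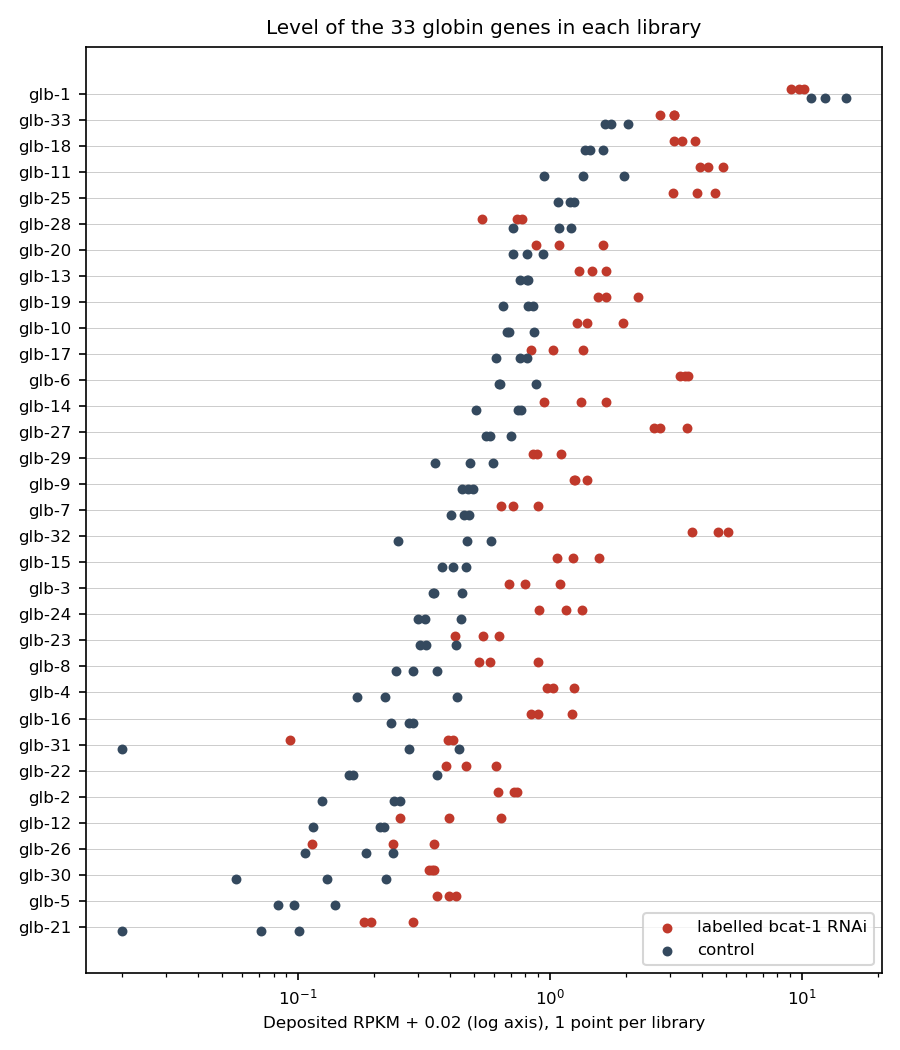
Deposited RPKM of the 33 globin genes, with 0.02 added, on a log axis. Each point is 1 library, with the RNAi-labelled libraries in red above the controls in dark blue, and genes are ordered by their control mean. The red points lie right of the blue ones for most genes and left of them for glb-1, while for glb-28 the colours overlap in RPKM (0.518 to 0.752 in the RNAi-labelled libraries and 0.694 to 1.19 in the controls).

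The comparison between groups asked which globin transcripts differ between libraries labelled RNAi against bcat-1 and libraries labelled control. Most globins were higher in the RNAi-labelled libraries, and the most abundant one, glb-1, was lower. Enough reads for the test were found for 30 of the 33 genes. Of these, 20 rose, 2 fell and 8 missed the threshold, a Benjamini-Hochberg adjusted p under 0.05 over all 16391 genes in the quasi-likelihood test of edgeR. Without RNAi replicate 3 there were 18 rises and 1 fall, and with control replicate 1 left out as well 16 and 1. Rises of called genes ran from log2 0.47 for glb-33 to log2 3.21 for glb-32. At least 2-fold higher were 12 of them, and at least 4-fold higher were glb-32, glb-27 and glb-6. Neither of the 2 falls, glb-1 and glb-28, reached 2-fold.

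These counts were read against those of the other genes. Called higher were 66.7% of the tested globins, against 36% of all genes tested, and called lower were 6.67%, against 25.6% (61.6% of all genes in either direction). With library size only in place of TMM, 7332 genes were called higher and 1947 lower, beside 5907 and 4189. Among the 7968 tested genes whose mean level lay within that of the tested globins (0.164 to 8.31 CPM), 52.3% were called higher and 6.98% lower (59.3% in either direction). The median log2 fold change was 0.97 over the tested globins, 0.75 over the genes in that range of levels and 0.15 over all genes tested. The globins thus lay nearer to genes of like level than to all genes, and whether they differ from genes of like level was not tested.

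**Figure D2:**
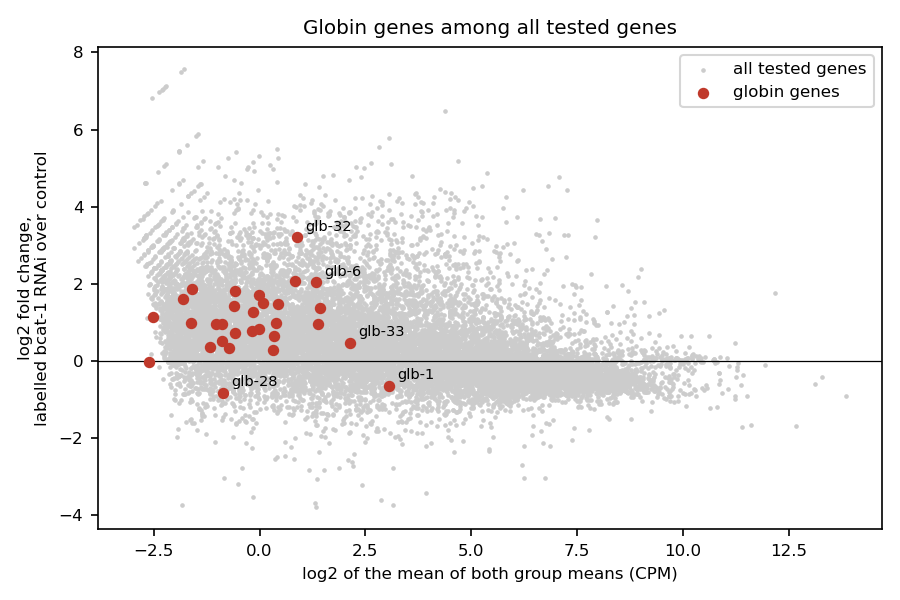
Log2 fold change (RNAi-labelled libraries over controls) of all 16391 tested genes in grey against the log2 of the mean of the group means in CPM, with the 30 tested globins in red. Most globins lie among the weakly expressed genes and above 0, with glb-32 highest at log2 3.21, and glb-1 and glb-28 lie below 0.

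Neuronal markers mostly rose and germ line markers fell, while those of body wall muscle and somatic gonad went both ways. For comparison, 36% of all tested genes were called higher and 25.6% lower. Of 22 tested neuronal markers 18 rose and 4 were not called (median log2 fold change 1.45). Their summed level was 873 to 968 CPM in the RNAi-labelled libraries, against 471 to 513 CPM in the controls. No marker of any list was at 0 reads in all libraries of a group. Of 11 body wall muscle markers 4 rose and 5 fell, with sums of 552 to 691 CPM in the RNAi-labelled libraries, against 607 to 738 CPM in the controls. All 11 germ line markers fell, with sums of 3225 to 4210 CPM in the RNAi-labelled libraries, against 6466 to 7854 CPM in the controls. Of 10 somatic gonad markers 4 rose and 1 fell, with sums of 392.1 to 462.2 CPM in the RNAi-labelled libraries, against 467 to 484 CPM in the controls. The part of the tissue makeup in the globin results was not tested.

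The filter on low counts bears on these numbers. The 6 genes glb-2, glb-4, glb-5, glb-22, glb-30 and glb-32 reached its level of 0.243 CPM in all RNAi-labelled libraries but not in all controls, so they entered the test only through the group in which they are high. The 23 globins that reached it in all 6 libraries held 16 rises, 2 falls and 5 genes without a call. Over all 33 genes, the 3 CPM values of the RNAi-labelled libraries lay above those of the controls for 25 and below them for 2, and the groups overlapped for 6. For the 30 tested globins these counts were 23 above and 2 below. Among all genes tested, 40.2% had all RNAi values above all control values and 31% had them below, and among those within the level range of the globins 58.5% and 8.85% did.

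**Figure D3:**
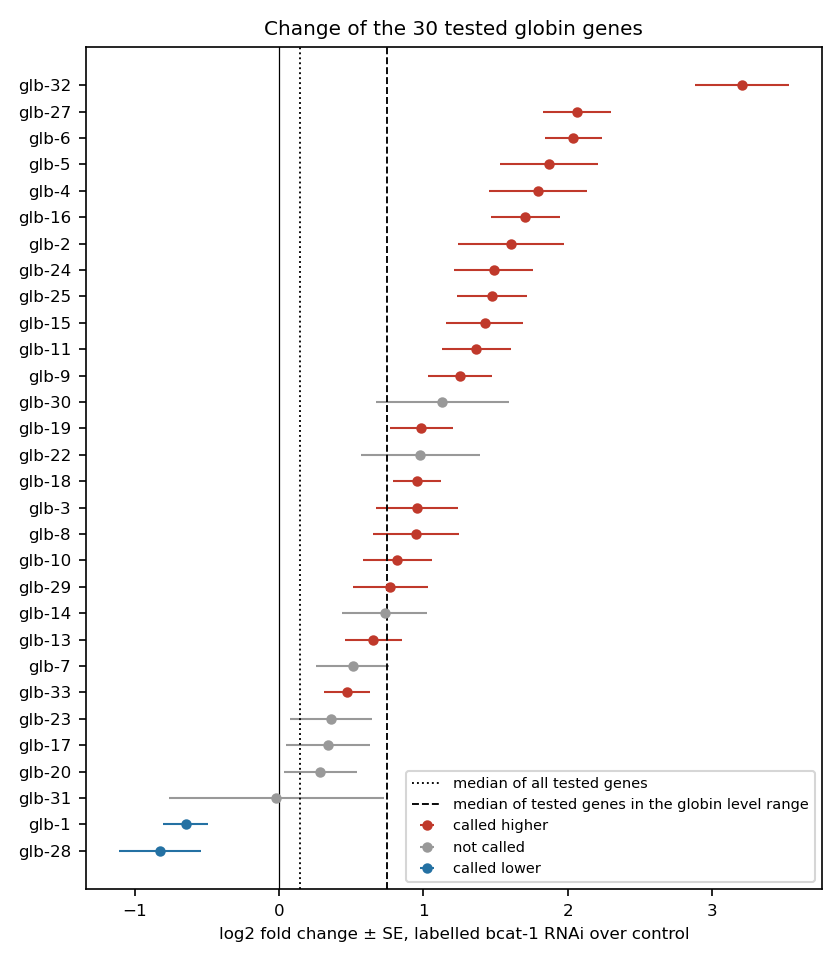
Log2 fold change with its standard error for the 30 tested globins, RNAi-labelled libraries over controls (3 libraries each). Red marks the 20 genes called higher, blue the 2 called lower and grey the 8 not called. The dotted line is the median of all tested genes (0.15) and the dashed line that of tested genes within the level range of the globins (0.75).

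The largest rise in the family was that of glb-32 (Y58A7A.6), on the minus strand of chromosome V from 5087493 to 5089547. It had 3.55, 3.85 and 2.56 CPM in the RNAi-labelled libraries, against 0.198, 0.520 and 0.386 CPM in the controls. Every library labelled bcat-1 RNAi was several times above the highest control (log2 3.21, SE 0.32, edgeR adjusted p = 5.84e-05). Not all controls reached the filter level, so glb-32 entered the test only through the RNAi-labelled libraries. Its rank by mean RPKM was 2 of the 33 genes in the RNAi-labelled libraries and 18 in the controls. Next came glb-27 (W01C9.5), on the minus strand of chromosome II from 8547337 to 8556266, with 2.79, 3.51 and 2.40 CPM in the RNAi-labelled libraries, against 0.644, 0.832 and 0.618 CPM in the controls. The groups did not overlap (log2 2.07, SE 0.24, edgeR adjusted p = 0.00012).

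The neighbouring genes of the neuronal globins GLB-5 and GLB-6 both rose. The genes glb-5 (C18C4.1) and glb-6 (C18C4.9) lie tail to tail on chromosome V, glb-5 on the plus strand from 5558890 to 5564263 and glb-6 on the minus strand from 5568184 to 5570533, with 3.92 kb and no protein-coding gene between them. GLB-5 acts in the oxygen-sensing neurons, where it tunes responses to changes in ambient oxygen, and the strain N2 carries a laboratory-derived allele of glb-5 with reduced function. GLB-6 is a neuronal globin whose heme iron is held by histidines on both sides. Levels of glb-6 were 4.02, 4.12 and 3.94 CPM in the RNAi-labelled libraries, against 0.842, 0.901 and 1.18 CPM in the controls. The values within each group lay close together and the groups far apart (log2 2.04, SE 0.20, edgeR adjusted p = 4.87e-05). For glb-5 there were 21, 27 and 22 reads in the RNAi-labelled libraries, against 5, 6 and 4 reads in the controls (log2 1.87, SE 0.34, edgeR adjusted p = 0.00153). The groups did not overlap, although the counts were small and glb-5 entered the test only through the RNAi-labelled libraries. An annotated noncoding gene on the other strand shares 142 exon bases with glb-5, and reads from the strands cannot be told apart here.

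Other globins studied in neurons rose less. GLB-33 is a large protein that joins a globin domain to a receptor-like transmembrane part, and with 546 residues it is the longest of the family. Its gene glb-33 (Y75B7AL.1; chromosome V, plus strand, 1352126 to 1356594) had 5.55, 4.78 and 5.03 CPM in the RNAi-labelled libraries, against 4.09, 3.71 and 3.27 CPM in the controls. The groups did not overlap, but the difference was small (log2 0.47, SE 0.16, edgeR adjusted p = 0.0295). The call was lost without RNAi replicate 1 or 2 or control replicate 2 or 3 (edgeR adjusted p = 0.115, 0.0585, 0.0668 and 0.0816), with DESeq2 (adjusted p = 0.127), with its size factors in edgeR and with no filter (edgeR adjusted p = 0.0823 and 0.0822). GLB-13 is a neuronal globin linked to protection from reactive oxygen species. Its gene glb-13 (F19H6.2; chromosome X, minus strand, 12374222 to 12378393) had 1.42, 1.56 and 1.65 CPM in the RNAi-labelled libraries, against 0.991, 0.970 and 0.979 CPM in the controls (log2 0.66, SE 0.20, edgeR adjusted p = 0.0168). The 3 controls were nearly equal, and all RNAi values lay above them. Without RNAi replicate 2 the adjusted p was 0.0512, and with DESeq2 it was 0.118.

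Of the globins studied outside neurons, glb-1 fell, and glb-12 and glb-26 had too few reads for the test. The gene glb-1 had 6.30, 6.93 and 6.21 CPM in the RNAi-labelled libraries, against 11.7, 10.3 and 8.47 CPM in the controls (log2 −0.65, SE 0.16, edgeR adjusted p = 0.00637). It kept its call in 15 of 17 alternatives, and it was not called with library size only (log2 −0.40, edgeR adjusted p = 0.0625) or with limma on log2(RPKM + 1) (log2 −0.36, adjusted p = 0.055). GLB-12 acts in the gonad, where it takes part in redox signalling. Its gene glb-12 (C52A11.2) was below the filter, with 15, 10 and 23 reads in the RNAi-labelled libraries, against 8, 3 and 8 reads in the controls. The RNAi counts were the higher ones, but the gene was not tested. GLB-26 is known from a few muscle-lineage cells. Its gene glb-26 (T22C1.2) had 5, 8 and 2 reads in the RNAi-labelled libraries, against 4, 4 and 2 reads in the controls, which overlap, and it was not tested. It also shares 648 exon bases with T22C1.1 on the other strand, so its reads are uncertain. The third gene below the filter, glb-21, had 4, 7 and 4 reads in the RNAi-labelled libraries, against 0, 1 and 2 reads in the controls.

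The second fall was that of glb-28 (Y15E3A.2), on the minus strand of chromosome X from 15314874 to 15317246. It had 14, 21 and 19 reads in the RNAi-labelled libraries, against 34, 15 and 29 reads in the controls, and in CPM the groups did not overlap, with 0.325, 0.444 and 0.431 CPM in the RNAi-labelled libraries, against 0.842, 0.520 and 0.747 CPM in the controls (log2 −0.83, SE 0.28, edgeR adjusted p = 0.0297). The call was lost in 11 of 16 alternatives, among them leaving out RNAi replicate 1, 2 or 3 (edgeR adjusted p = 0.103, 0.0514 and 0.0541) or control replicate 1 or 3 (0.103 and 0.065) and DESeq2 (adjusted p = 0.0567). Its rank by mean RPKM was 24 in the RNAi-labelled libraries and 6 in the controls.

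Among globins without a well-studied role, 4 more belonged to the 8 largest called changes besides glb-32, glb-27, glb-6 and glb-5. The gene glb-4 (C09H10.8; chromosome II, minus strand, 11109571 to 11111207) had 1.02, 0.951 and 1.13 CPM in the RNAi-labelled libraries, against 0.173, 0.243 and 0.464 CPM in the controls (log2 1.80, SE 0.34). The gene glb-16 (F46C8.7; chromosome X, minus strand, 7537809 to 7540133) had 1.44, 1.31 and 1.79 CPM in the RNAi-labelled libraries, against 0.471, 0.416 and 0.489 CPM in the controls (log2 1.71, SE 0.24). In both genes the lowest RNAi library lay more than 2-fold above the highest control. The gene glb-2 (C06E4.7; chromosome IV, minus strand, 7262063 to 7263237) had 20, 22 and 16 reads in the RNAi-labelled libraries, against 7, 5 and 3 reads in the controls (log2 1.61, SE 0.37). The gene glb-24 (R90.5; chromosome V, minus strand, 12882033 to 12885960) had 1.93, 1.63 and 1.18 CPM in the RNAi-labelled libraries, against 0.694, 0.485 and 0.489 CPM in the controls (log2 1.49, SE 0.27). The groups did not overlap for either. The edgeR adjusted p was 0.00189 for glb-4, 0.000382 for glb-16, 0.0049 for glb-2 and 0.0017 for glb-24. Both glb-4 and glb-2 entered the test only through the RNAi-labelled libraries.

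Of the globins with the highest mean RPKM after glb-1, 3 have not been described above in CPM. The gene glb-11 (C36E8.2; chromosome III, minus strand, 3989298 to 3992189) had 3.97, 3.59 and 4.15 CPM in the RNAi-labelled libraries, against 1.41, 1.04 and 2.03 CPM in the controls (log2 1.37, SE 0.24, edgeR adjusted p = 0.00133). The gene glb-25 (T06A1.4; chromosome V, plus strand, 1938263 to 1953748) had 2.44, 2.03 and 1.52 CPM in the RNAi-labelled libraries, against 0.644, 0.762 and 0.747 CPM in the controls (log2 1.48, SE 0.25, edgeR adjusted p = 0.000977). The controls of glb-25 were close together, and its RNAi libraries were all at least 1.5 CPM. The gene glb-18 (F52A8.4) had 3.30, 3.47 and 3.63 CPM in the RNAi-labelled libraries, against 1.71, 1.73 and 1.91 CPM in the controls (log2 0.96, SE 0.17, edgeR adjusted p = 0.00135). It shares 101 exon bases with gcsh-2 on the other strand.

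The remaining rises were those of glb-15 (log2 1.42), glb-9 (1.26), glb-19 (0.99), glb-3 (0.96), glb-8 (0.95), glb-10 (0.82) and glb-29 (0.77). Of these, glb-3 is known as a cysteine-rich, membrane-tethered globin of the reproductive and nervous systems. The calls of glb-3 and glb-10 were lost without control replicate 1 (edgeR adjusted p = 0.057 and 0.0535). That of glb-8 was lost without RNAi replicate 3 or control replicate 1 or 2 (edgeR adjusted p = 0.0547, 0.0617 and 0.067). That of glb-29 was lost without RNAi replicate 1, 2 or 3 or control replicate 2 or 3 (edgeR adjusted p = 0.0605, 0.0505, 0.0584, 0.0629 and 0.0876). With DESeq2 these 4 genes were not called either (adjusted p = 0.115 for glb-3, 0.0721 for glb-10, 0.105 for glb-8 and 0.116 for glb-29).

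The 8 genes that did not pass the test had log2 fold changes from −0.02 for glb-31 to 1.13 for glb-30, and edgeR adjusted p-values from 0.0539 to 0.984. They were glb-7, glb-14, glb-17, glb-20, glb-22, glb-23, glb-30 and glb-31. For glb-7, glb-14 and glb-30 the groups did not overlap, with higher values in the RNAi-labelled libraries, and for the other 5 they did. The least certain was glb-31, with 2, 11 and 10 reads in the RNAi-labelled libraries, against 12, 0 and 7 reads in the controls (log2 −0.02, SE 0.74). Without 1 library glb-14 was called higher (RNAi replicate 1 left out, edgeR adjusted p = 0.0389), as were glb-22 (control replicate 2 left out, 0.0179) and glb-30 (control replicate 3 left out, 0.02).

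The makeup of the globin transcripts differed between the groups. The summed level of the family was 51.3, 51.5 and 51.4 CPM in the RNAi-labelled libraries, against 32.5, 30.1 and 29.7 CPM in the controls. The means were 51.4 ± 0.072 and 30.8 ± 1.51 CPM in the same order (SD, n = 3), a ratio of 1.67. Without glb-1 they were 44.9 ± 0.353 and 20.6 ± 0.67 CPM (SD, n = 3), a ratio of 2.18. The family sums of the RNAi-labelled libraries rest on 2210, 2436 and 2269 reads. Both SDs of that group lie below the counting error of such read numbers, so they understate the replicate spread. The gene glb-1 took 12.26%, 13.46% and 12.08% of the globin reads in the RNAi-labelled libraries, against 36.05%, 34.02% and 28.56% in the controls. The exact (Clopper-Pearson) 95% binomial intervals ran from 10.76% to 14.88% over the RNAi-labelled libraries and from 25.96% to 38.72% over the controls, so they did not overlap between groups. They cover counting error only. Whole worms were sequenced, so fewer cells of a type and less RNA per cell cannot be told apart.

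**Figure D4:**
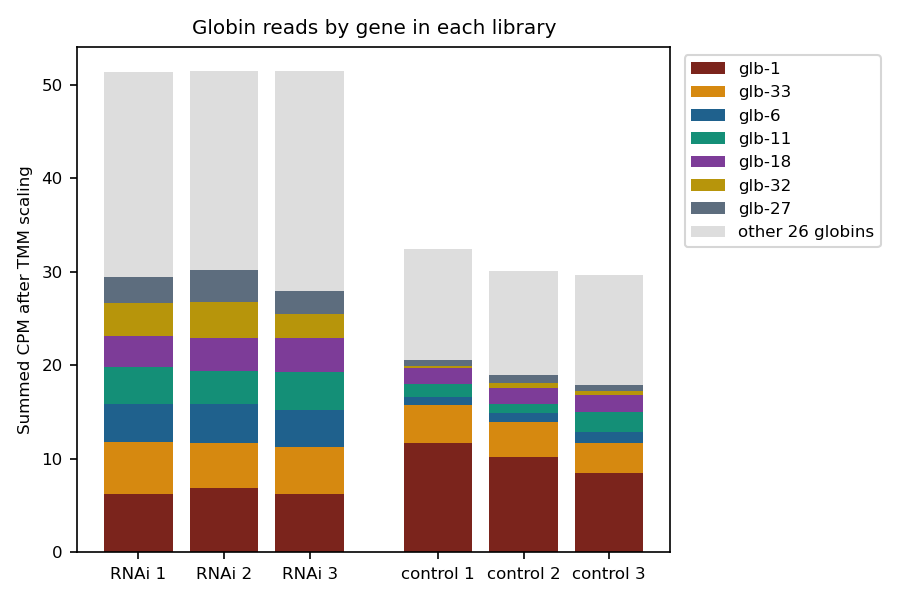
Summed CPM of the globins in each library, the 3 RNAi-labelled libraries on the left and the 3 controls on the right, split into 7 genes and the other 26. The bars reach 51.3 to 51.5 CPM in the RNAi-labelled libraries and 29.7 to 32.5 CPM in the controls, while the glb-1 part at the base is smaller in the RNAi-labelled libraries (6.21 to 6.93 CPM) than in the controls (8.47 to 11.7 CPM).

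The genes are spread over all 6 chromosomes, with 10 on V, 7 on II, 5 each on IV and X, and 3 each on I and III. Called rises were found on every chromosome, with 8 of 10 tested genes on V, 5 of 6 on II, 2 of 5 on X, 2 of 4 on IV, 1 of 3 on III and 2 of 2 on I. Over all chromosomes, 36% of all tested genes were called higher, and 52.3% of those within the level range of the globins. Shares of all genes by chromosome were not taken, and whether the chromosomes differ was not tested. Only 3 pairs of globins lie within 100 kb of each other. They are glb-5 and glb-6, glb-23 and glb-2 on IV (42.6 kb apart) and glb-19 and glb-21 on IV (55.4 kb apart). The longest coding sequence of a globin gene encodes 159 to 546 residues, with a median of 272. In the Ensembl annotation, 16 of the 33 genes share exon bases with another gene, mostly on the other strand, and reads over the shared bases cannot be assigned with certainty. Among the 15 tested genes that share none, 9 rose, 1 fell and 5 were not called, and among the 15 that share some, 11 rose, 1 fell and 3 were not called. Shares of all genes by exon sharing were not taken either, and the difference was not tested.

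Since glb-5 acts in oxygen-sensing neurons, other genes of these cells were examined. These neurons detect oxygen with soluble guanylyl cyclases that bind it at a heme, and the cyclic GMP they make opens a channel formed by TAX-2 and TAX-4. Of 18 tested genes 15 rose (12 with DESeq2) and 0 fell, beside 36% of all tested genes called higher and 25.6% lower. Most of these genes lie within the level range of the globins, where 52.3% of tested genes were called higher and 6.98% lower. Whether the list differs from genes of like level was not tested. The other 3, gcy-35, npr-1 and ets-5, had log2 values above 0 without passing the test. The 6 genes gcy-32, gcy-34, tax-2, tax-4, npr-1 and ets-5 entered the test only through the RNAi-labelled libraries, and of the 12 at the filter level in all 6 libraries 11 rose. The cyclase gene gcy-36 had 6.64, 7.86 and 6.67 CPM in the RNAi-labelled libraries, against 0.718, 0.485 and 0.489 CPM in the controls (log2 3.62, SE 0.22, edgeR adjusted p = 4.8e-06). The cyclase gene gcy-37 had 5.64, 5.68 and 5.76 CPM in the RNAi-labelled libraries, against 0.718, 0.589 and 0.644 CPM in the controls (log2 3.12, SE 0.18, edgeR adjusted p = 4.73e-06). Both groups were tight and far apart. The partner cyclase gcy-35 had 1.21, 1.27 and 0.975 CPM in the RNAi-labelled libraries, against 0.595, 0.658 and 1.08 CPM in the controls, which overlap (log2 0.55, edgeR adjusted p = 0.107), and it was called higher with control replicate 3 left out (log2 0.88, edgeR adjusted p = 0.0214). The neuropeptide receptor gene npr-1, which sets how worms aggregate in response to oxygen, had 0.372, 0.317 and 0.499 CPM in the RNAi-labelled libraries, against 0.223, 0.277 and 0.0515 CPM in the controls (log2 1.14, edgeR adjusted p = 0.0596).

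Genes that handle heme, the cofactor of all globins, were examined next. Of 14 genes listed 8 were found in the table under the symbols used, and 7 were tested, of which 6 rose and 1 fell, beside 36% and 25.6% of all tested genes. Among the rises, hrg-2, hrg-3, hrg-4 and hrg-6 lie within the level range of the globins. There 52.3% of tested genes were called higher and 6.98% lower. Whether the heme genes differ from genes of like level was not tested. The heme transporter gene hrg-1, whose protein moves heme out of lysosome-related compartments, had 33.6, 38.7 and 45.5 CPM in the RNAi-labelled libraries, against 15.5, 16.1 and 10.5 CPM in the controls (log2 1.49, SE 0.18, edgeR adjusted p = 0.000174). The gene of the intestinal heme importer, hrg-4, had 4.20, 4.71 and 7.59 CPM in the RNAi-labelled libraries, against 1.76, 2.11 and 1.26 CPM in the controls (log2 1.69, SE 0.28, edgeR adjusted p = 0.000943). For both genes all RNAi values lay above all control values. The highest log2 value was that of hrg-3, which encodes a secreted heme carrier that supplies embryos, from 13, 16 and 26 reads in the RNAi-labelled libraries, against 2 reads in each control (log2 2.81, SE 0.48, edgeR adjusted p = 0.00114), and it entered the test only through the RNAi-labelled libraries. The 6 genes at the filter level in all 6 libraries held 5 rises and 1 fall. Next was hrg-2, with 1.14, 1.46 and 1.36 CPM in the RNAi-labelled libraries, against 0.322, 0.416 and 0.412 CPM in the controls (log2 1.79, edgeR adjusted p = 0.000348). The fall was that of cchl-1, the gene of the enzyme that attaches heme to cytochrome c, with 165, 153 and 172 CPM in the RNAi-labelled libraries, against 203, 239 and 206 CPM in the controls (log2 −0.41, SE 0.10, edgeR adjusted p = 0.00685), and it was not called with library size only.

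The hypoxia pathway was examined as well. In it the hydroxylase EGL-9 marks the transcription factor HIF-1 for destruction while oxygen is present. Among 19 tested genes there were 4 rises, 6 falls and 9 genes without a call. Of all tested genes, 36% were called higher and 25.6% lower. The median log2 fold change was −0.19 over the list and 0.15 over all tested genes. Whether the list differs from all genes was not tested. With library size only there were 8 rises and 3 falls. The gene hif-1 itself had 141.3, 135.3 and 121.1 CPM in the RNAi-labelled libraries, against 122.2, 111.8 and 115.01 CPM in the controls (log2 0.19, SE 0.09, edgeR adjusted p = 0.103). Library size only gave hif-1 a log2 value of 0.43 (edgeR adjusted p = 0.00185), and leaving out RNAi replicate 3 gave 0.27 (edgeR adjusted p = 0.00949), both called. Its hydroxylase gene egl-9 was not called (log2 −0.20, edgeR adjusted p = 0.122). It was called lower with DESeq2 size factors in edgeR (log2 −0.32, edgeR adjusted p = 0.0416), and its sign turned with library size only. The list was not split into genes that HIF-1 induces and other genes. Called higher in it were phy-2, nhr-57, cysl-1 and F22B5.4. Of these 4, F22B5.4 (log2 2.28, SE 0.28, edgeR adjusted p = 0.000179) entered the test only through the RNAi-labelled libraries. The other 3 were at the filter level in all 6 libraries. Log2 values were 1.44 (SE 0.24, edgeR adjusted p = 0.000915) for phy-2 and 0.75 (SE 0.15, edgeR adjusted p = 0.00265) for nhr-57. The gene rhy-1 fell (log2 −0.70, SE 0.15, edgeR adjusted p = 0.0032). The gene cysl-2 was not called (log2 0.21, edgeR adjusted p = 0.239). The gene cysl-1, whose protein binds EGL-9, had 35.2, 35.7 and 27.6 CPM in the RNAi-labelled libraries, against 8.94, 8.25 and 8.09 CPM in the controls (log2 1.96, SE 0.14, edgeR adjusted p = 9.64e-06). The largest falls were those of the elongin gene elc-1 and of cysl-3, a relative of cysl-1. Levels of elc-1 were 26.1, 28.2 and 10.97 CPM in the RNAi-labelled libraries, against 35.9, 38.7 and 44.0 CPM in the controls, with RNAi replicate 3 far below the others (log2 −0.86, SE 0.29, edgeR adjusted p = 0.0282). Levels of cysl-3 were 39.9, 38.5 and 34.3 CPM in the RNAi-labelled libraries, against 66.3, 67.1 and 63.6 CPM in the controls (log2 −0.81, SE 0.10, edgeR adjusted p = 0.000154).

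**Figure D5:**
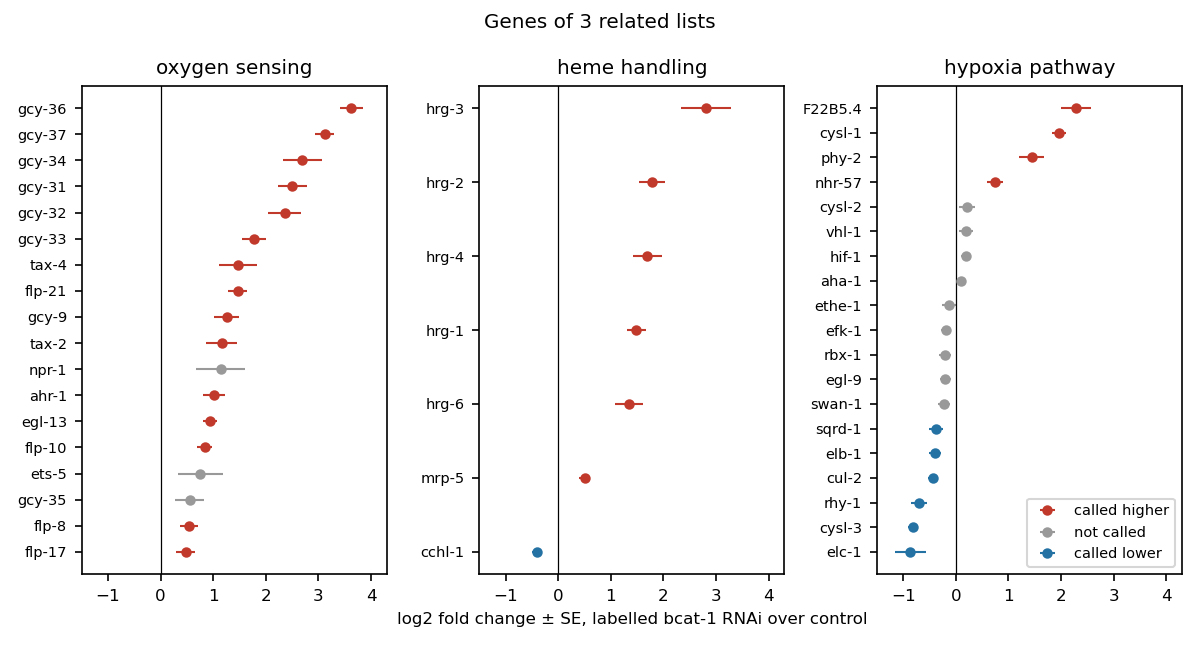
Log2 fold change with its standard error for the tested genes of oxygen-sensing neurons (18), heme handling (7) and the hypoxia pathway (19), RNAi-labelled libraries over controls. Red marks genes called higher (15, 6 and 4), blue genes called lower (0, 1 and 6) and grey genes not called.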

How the data were processed

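Total RNA of 6 whole-worm samples was sequenced in single reads. The authors mapped the reads to WBcel235 with TopHat2 2.0.6, counted uniquely mapped reads with featureCounts and deposited the counts with no normalisation. Not given in the sources used here were its version and handling of strand. The library kit records no strand. The authors also deposited RPKM, from the same counts, exon lengths and totals. From the counts, genes were filtered with filterByExpr, libraries scaled by TMM, and groups compared over the whole table with edgeR 4.0.16 (quasi-likelihood, two-sided, group only, R 4.3.3) and Benjamini-Hochberg adjustment. The edgeR procedure was also run on simulated counts with a small set of genes changed, equally many up and down. Far more genes were called in the data, so that run cannot check the scaling here. Alternatives were other scalings and filters, DESeq2 1.42.0, limma 3.58.1 on voom values and on log2(RPKM + 1) and log2(RPKM + 0.1), and libraries left out with the tested genes kept. Positions, exon overlaps and coding lengths were taken from the WBcel235 annotation of Ensembl (release 115), where all 33 symbols and sequence names matched. Named were the 8 globins called with the largest changes, the 5 with the highest mean RPKM, 7 studied globins, others by counts, fixed genes and up to 2 rises and 2 falls of the related lists, and bcat-1. The remaining rises of the hypoxia pathway, phy-2 and nhr-57, were added. Members and lists were chosen with earlier results of these data known. No pair of libraries within a group agreed within sampling noise (chi-square per degree of freedom at least 13.8). Replicate numbers only name libraries.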

Additional observations from a re-analysis of the deposited data

How the results depend on the processing

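Over 17 alternatives the number of globins called higher ran from 14 (DESeq2) to 24 (library size only and limma on RPKM plus 1 or 0.1), beside 20. Among all tested genes, 4816 were called higher with DESeq2, beside 5907. With library size only they were 7332, and with limma on RPKM plus 1 and 0.1 they were 7335 and 7348. Of the 20 globins, 14 kept their call in every alternative that tested them. Among these 14, glb-2, glb-5 and glb-15 were not tested at 1 CPM in 3 libraries. With 1 library left out the number of globins called higher ran from 17 to 19. The number called lower, 2, was 1 with upper quartile scaling, at 1 CPM in 3 libraries, with DESeq2, with limma on RPKM plus 0.1 and when both control replicate 1 and RNAi replicate 3 were dropped, 0 with library size only and limma on RPKM plus 1, and 1 to 2 with 1 library left out. The median log2 fold change of the tested globins, 0.97, was 0.85 with DESeq2 size factors in edgeR, 0.84 with DESeq2, 1.21 with library size only, 1.11 with upper quartile scaling, 1.34 at 1 CPM in 3 libraries (17 globins tested) and 0.48 with limma on RPKM plus 1, whose pseudocount shrinks low values. Globins such as glb-32, glb-27 and glb-16 reach 1 CPM only in the RNAi-labelled libraries. They pass that filter only through the group in which they are high, so the filter itself raises this median. The median of all tested genes, 0.15, was 0.02 with DESeq2 size factors and with DESeq2, 0.40 with library size only, 0.28 with upper quartile scaling, 0.064 at 1 CPM in 3 libraries and 0.24 with limma on RPKM plus 1. At 1 CPM in 3 libraries and with limma on RPKM plus 1 it thus moved opposite to the globin median. Of all genes, 4189 were called lower with TMM, 1947 with library size only, 1934 and 1918 with limma on RPKM plus 1 and plus 0.1.

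In heme handling 0 genes fell with library size only and with limma on RPKM plus 1 or 0.1, beside 1. In the hypoxia pathway 8 genes rose with library size only and with limma on RPKM plus 1 or 0.1, beside 4. There 10 fell with DESeq2 size factors in edgeR, 3 with upper quartile scaling or library size only and 2 with limma on RPKM plus 1 or 0.1, beside 6, and 3 to 7 with 1 library left out. The sign of glb-31, which was not called, turned with upper quartile scaling (0.12), library size only (0.23), the likelihood ratio test (0.022), limma-voom (0.45), limma on RPKM plus 1 (0.070) and plus 0.1 (0.38), without 1 library (−0.48 to 0.73) and when both control replicate 1 and RNAi replicate 3 were dropped (0.50). That of egl-9 turned with library size only (0.049) and limma on RPKM plus 1 (0.046) and plus 0.1 (0.049), and it was called lower with DESeq2 size factors in edgeR (−0.32). No paired analysis was possible because the labels give the groups no shared replicate numbers. The cause of a lost call was not tested.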

Other observations

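A gene that the Ensembl annotation names glb-34 is listed in the deposited table under its sequence name, Y57G11B.97, and was not counted among the globins. It had 4, 6 and 5 reads in the RNAi-labelled libraries, against 3, 0 and 1 reads in the controls, and was below the filter.

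Other tissue marker lists gave the following values, beside 36% of all tested genes called higher and 25.6% lower. Of 8 tested epidermal markers 6 rose and 1 fell (4 and 1 of the 6 at the filter level in all libraries), with sums of 288 to 342 CPM in the RNAi-labelled libraries, against 181 to 223 CPM in the controls. Of 6 tested pharyngeal markers 5 rose and 1 was not called, with sums of 159 to 201 CPM in the RNAi-labelled libraries, against 91.7 to 151 CPM in the controls. Of 10 intestinal markers 5 rose and 1 fell, with sums of 1260 to 1434 CPM in the RNAi-labelled libraries, against 992 to 1397 CPM in the controls. Of 6 tested sperm genes 4 rose and 1 fell (2 and 1 of the 3 at the filter level in all libraries), with sums of 22.31 to 26.03 CPM in the RNAi-labelled libraries, against 17.29 to 20.21 CPM in the controls. Of 4 coelomocyte markers 2 fell and 2 were not called, with sums of 117 to 128 CPM in the RNAi-labelled libraries, against 155 to 176 CPM in the controls.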
